A study of Mus musculus with 8 samples.

Results

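The genes described here are 41 genes of G2 and M phase, the kinetochore, the spindle and cytokinesis, measured in the back skin epithelium of Foxi3 null and wild-type mouse embryos. They were taken by gene symbol from a table of 26165 genes, and each of the 41 symbols had 1 row. The embryos were collected at E15.5. The first group held 4 Foxi3 total null embryos (genotype Foxi3-/-), which were recognised by the absence of a jaw and then genotyped. The other held 4 wild-type embryos (Foxi3+/+). The embryos came as littermates out of 4 litters (strain C57/Bl6), and the labels do not tie an embryo to its litter. Epithelium was separated with dispase, 1 embryo was hybridised to 1 array, and values are log2 intensities after RMA, in which a difference of 1 is a doubling. Replicates are separate embryos.

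A cell enters mitosis when cyclin A and cyclin B partners activate the kinase Cdk1. Kinetochores built on centromeric chromatin then bind spindle microtubules, and the spindle checkpoint holds back the anaphase-promoting complex until all chromosomes are attached. The genes of this programme are transcribed late in the cell cycle, and many are repressed in resting cells by the DREAM complex and activated in G2 by B-Myb and FoxM1. A pair of promoter features is known for this control, the cell cycle genes homology region (CHR) and CCAAT boxes that bind NF-Y. In developing skin, dividing cells lie mainly in the basal layer, and the terminally differentiated cells above it have left the cycle.

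Markers of the labelled tissue were bright in every sample. The basal keratin genes Krt5 and Krt14 had log2 intensities of 12.03 to 12.05 and 11.48 to 11.72 in null samples, against 12.02 to 12.07 and 11.61 to 11.71 in wild-type samples. Vim, counted here among dermal fibroblast genes, was also bright, at 10.59 to 11.20 in null and 10.58 to 10.76 in wild-type samples. The 12 dermal fibroblast genes had mean levels of 7.47 to 9.06 in null and 7.42 to 7.74 in wild-type samples. The keratin values thus do not show that the preparations held epithelium alone. Foxi3 itself was 8.62, 8.43, 8.45 and 8.19 in null samples 1 to 4, against 8.96, 9.07, 9.20 and 8.55 in wild-type samples 1 to 4. Null 1 thus lay above wild type 4, and the difference was −0.52 (SE 0.15, limma adjusted p = 1.00). The array level of Foxi3 was well above the median of all genes in both groups. Where its probes lie relative to the deletion was not analysed here, so these values do not check the genotype labels. The Y-linked gene Ddx3y was high in null 3 (7.69) and in wild types 3 (7.98) and 4 (8.13), and lay at 2.34 to 2.67 elsewhere. Since this is bulk RNA, a change in the share of cycling cells and a change in mitotic RNA per cell cannot be told apart.

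Promoter sequences of 6 genes are given because transcripts of the group varied together between embryos. Windows of 300 bases, from 250 before to 50 after the RefSeq transcript start (build GRCm38.p6), were found for 34 of the 41 genes, in 37 windows. The CHR was searched as TTTGAA or TTCGAA and the CCAAT box as CCAAT, on both strands, so that TTCAAA and ATTGG counted as matches. Matches on opposite strands may overlap, as in a CCAATTGG of Ube2c. Those below are for 2 Cdk1 complex genes (Ccnb2 and Cdk1), 2 centromere genes of the named set (Cenpf and Cenpa), the proliferation marker gene Mki67, and Ube2c, whose level hardly differed between the groups. All are written 5′ to 3′ along the gene, and capitals mark the matches. The Ccnb2 window is chr9:70421505-70421804 on the minus strand. That of Cdk1 is chr10:69352863-69353162 on the minus strand, and that of Cenpf is chr1:189688037-189688336 on the minus strand. Cenpa lies at chr5:30666636-30666935 on the plus strand, Mki67 at chr7:135716330-135716629 on the minus strand and Ube2c at chr2:164769679-164769978 on the plus strand.
Ccnb2: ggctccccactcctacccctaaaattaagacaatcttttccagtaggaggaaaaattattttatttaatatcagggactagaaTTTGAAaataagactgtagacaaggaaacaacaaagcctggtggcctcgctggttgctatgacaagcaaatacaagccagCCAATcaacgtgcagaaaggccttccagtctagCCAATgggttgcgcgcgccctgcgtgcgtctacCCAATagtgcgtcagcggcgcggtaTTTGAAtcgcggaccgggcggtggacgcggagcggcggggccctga
Cdk1: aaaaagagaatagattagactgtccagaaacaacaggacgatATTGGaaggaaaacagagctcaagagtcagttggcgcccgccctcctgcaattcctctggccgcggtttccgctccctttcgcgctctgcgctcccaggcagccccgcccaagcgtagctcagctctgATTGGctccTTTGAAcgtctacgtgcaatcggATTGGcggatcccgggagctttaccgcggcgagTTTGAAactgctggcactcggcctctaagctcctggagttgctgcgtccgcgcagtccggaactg
Cenpf: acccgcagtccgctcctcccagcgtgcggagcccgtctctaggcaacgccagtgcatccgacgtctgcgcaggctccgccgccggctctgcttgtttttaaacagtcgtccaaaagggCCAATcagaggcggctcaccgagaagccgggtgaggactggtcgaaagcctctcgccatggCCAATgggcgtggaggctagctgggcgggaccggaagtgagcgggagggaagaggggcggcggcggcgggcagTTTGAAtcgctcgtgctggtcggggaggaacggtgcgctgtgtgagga
Cenpa: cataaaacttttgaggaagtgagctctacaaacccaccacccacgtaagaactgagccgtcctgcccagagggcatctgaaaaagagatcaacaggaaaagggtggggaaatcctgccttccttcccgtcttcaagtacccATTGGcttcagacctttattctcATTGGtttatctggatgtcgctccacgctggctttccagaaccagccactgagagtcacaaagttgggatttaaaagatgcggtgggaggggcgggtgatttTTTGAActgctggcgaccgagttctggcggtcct
Mki67: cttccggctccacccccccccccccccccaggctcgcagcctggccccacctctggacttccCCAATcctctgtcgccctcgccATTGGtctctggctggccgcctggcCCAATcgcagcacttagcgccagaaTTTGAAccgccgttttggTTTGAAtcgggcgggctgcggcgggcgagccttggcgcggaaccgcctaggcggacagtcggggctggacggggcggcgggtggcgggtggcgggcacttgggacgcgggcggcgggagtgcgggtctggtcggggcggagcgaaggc
Ube2c: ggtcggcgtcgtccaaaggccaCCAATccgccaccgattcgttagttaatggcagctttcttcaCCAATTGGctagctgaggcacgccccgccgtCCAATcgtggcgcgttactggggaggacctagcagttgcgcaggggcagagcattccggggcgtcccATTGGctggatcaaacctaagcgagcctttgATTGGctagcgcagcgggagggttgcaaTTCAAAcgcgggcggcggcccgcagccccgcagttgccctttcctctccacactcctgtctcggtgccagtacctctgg

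A CHR match lying wholly within 50 bases of the start was present in 26 of the 37 windows (70.3%), against 5.31% of all 32851 windows of the same length. At least 1 CCAAT match was present in 29 windows (78.4%), against 37.4% of all windows. Both features together were found in 24 windows (64.9%), against 2.24% of all windows. Mitosis genes outside the 41 had a CHR match near the start in 22 of 58 windows (37.9%) and both features in 29.3%. In the windows of DNA replication genes, CHR matches near the start were found in 2 of 40, while CCAAT matches were found in 24 of 40 (60.0%). Ccnb2 carries 3 CCAAT matches upstream of the start, with 1 CHR match at position 5 and another at −167, counted from the start to the first base of the match. Mki67 has its 2 CHR matches upstream of the near-start window, at −116 and −98. These matches describe the windows and show no binding. The 24 genes with a CHR match near the start had a median log2 difference, null minus wild type, of 0.12, and the 10 genes without one had a median of 0.13.

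**Figure D1:**
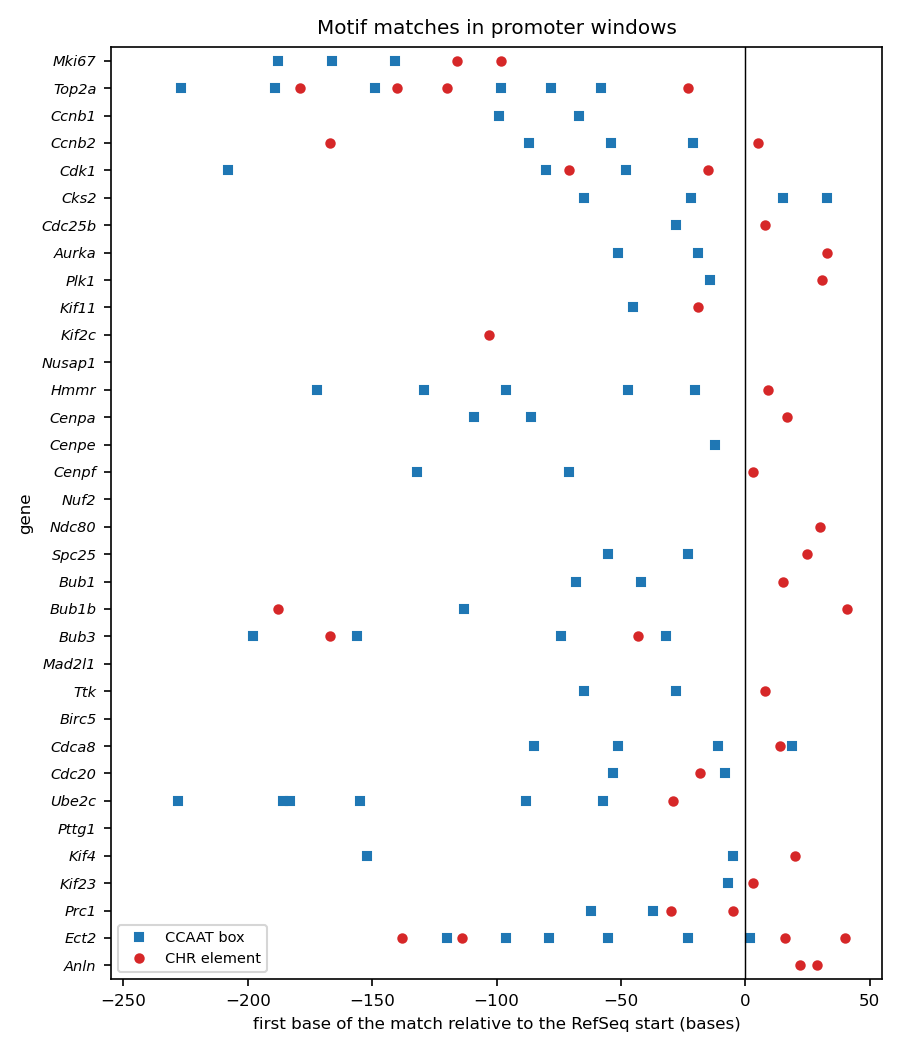
First base of each CHR and CCAAT match in the RefSeq windows of 34 mitosis and spindle genes, in bases from the transcript start (vertical line). Red points (CHR) gather around the start, within 50 bases of it in 26 of 37 windows, and blue squares (CCAAT) lie mostly upstream.

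Transcripts of the mitotic programme were slightly above wild type in Foxi3 null epithelium for most genes. None of the 41 passed limma's test when it was adjusted over all genes. Of the 41 genes, 38 had a log2 difference above 0 and 3 below 0, with a median of 0.13 (1.09-fold) and quartiles of 0.07 and 0.17. Over all 26165 genes, 46.0% had a difference above 0, with a median of −0.01. Among the 9238 genes with a mean at least as high as the lowest member apart from Ccnb1, 49.0% lay above 0. In limma's test, adjusted by Benjamini-Hochberg over all genes, 0 of 41 rose and 0 fell at adjusted p under 0.05, where 0.0115% of all genes were called (0.00382% higher and 0.00764% lower in null samples). At an unadjusted p under 0.05, 1 of the 41 was higher (Ccnb1) and 0 were lower, against 1.69% of all genes higher and 2.03% lower. The adjusted p was 1.00 for each of the 41 genes. The estimated differences were small, at most 0.32. The 95% interval held 0 for 40 genes. Its upper limit lay under 0.5 for 32 genes and reached 0.71 for Cenpf, so larger differences are not excluded for every gene. The difference was under 1 SD of the wild-type samples for 34 of 41 genes, and for 76.7% of all genes.

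**Figure D2:**
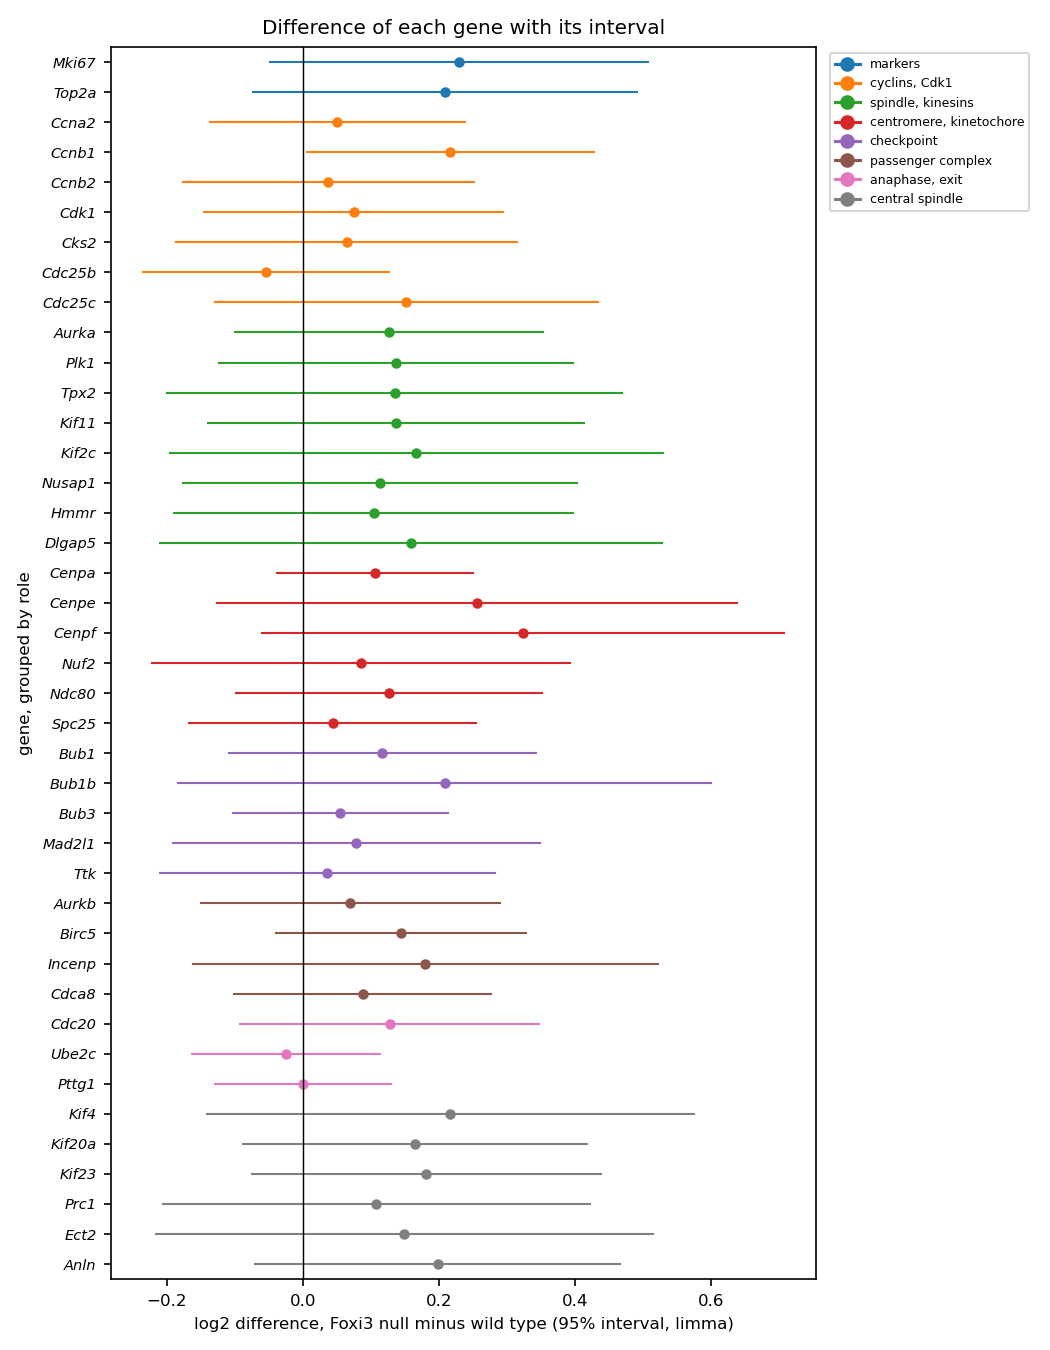
Log2 difference (Foxi3 null minus wild type, 4 embryos each) of the 41 genes, with points for the estimate and bars for limma's 95% interval, grouped by role. Of the points 38 lie right of 0, and 40 of the 41 bars cross it.

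**Figure D3:**
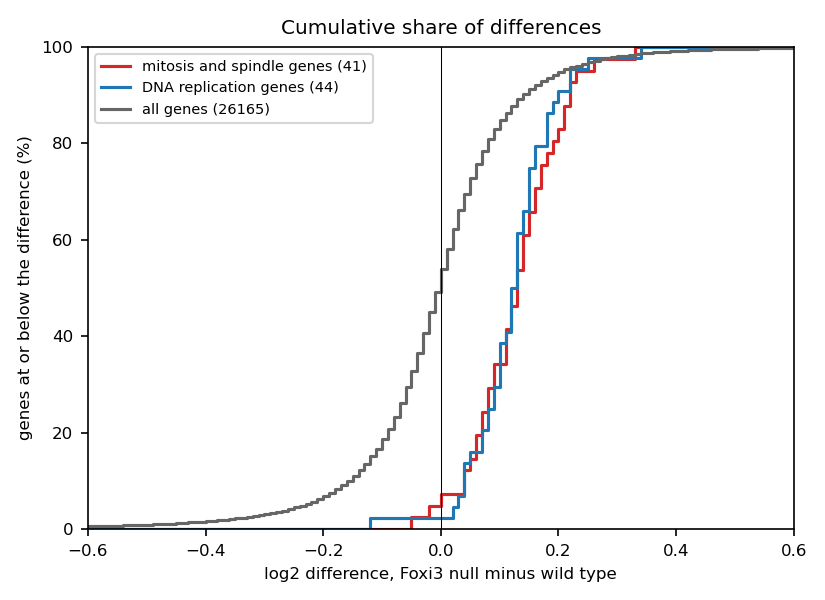
Cumulative percentage of genes at or below each log2 difference (Foxi3 null minus wild type) for the 41 mitosis and spindle genes, 44 DNA replication genes and all 26165 genes. Over most of the range both cell cycle curves lie to the right of the curve of all genes, with medians of 0.13 and 0.12 against −0.01.

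Both proliferation markers were above wild type on average, and their groups overlapped. Mki67 encodes the Ki-67 protein that coats mitotic chromosomes. Its log2 intensity was 10.56, 10.32, 10.68 and 10.10 in null samples 1 to 4, against 10.10, 10.16, 10.32 and 10.17 in wild-type samples 1 to 4. Of the null values 3 were above all wild-type values, null 2 only barely, and null 4 lay between them. The difference was 0.23 (SE 0.12, limma adjusted p = 1.00, exact two-sided permutation p = 0.171). Top2a, which encodes the topoisomerase that untangles sister chromatids, was 9.94, 9.85, 10.14 and 9.64 in null samples, against 9.76, 9.65, 9.88 and 9.46 in wild-type samples. Null 4 lay below 3 wild-type samples. The difference of Top2a was 0.21 (SE 0.12, limma adjusted p = 1.00, exact permutation p = 0.229).

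Among the cyclins, Cdk1 and the genes of mitotic entry, 6 of 7 lay above 0, with a median of 0.06, and 0 of 7 passed. Ccnb1, the B-type cyclin gene whose product drives entry into mitosis with Cdk1, was 4.00, 3.81, 3.78 and 3.86 in null samples, against 3.78, 3.67, 3.72 and 3.41 in wild-type samples. Wild type 1 alone reached into the null range, by a small margin. Its difference was 0.22 (SE 0.09, 95% interval 0.0058 to 0.43, limma adjusted p = 1.00, exact permutation p = 0.0571). Ccnb1 was the only member with a mean below the median of all genes, which was 5.22, and RMA compresses the differences of dim genes. Cdk1, the kinase gene itself, was 8.61, 8.62, 8.79 and 8.49 in null samples, against 8.61, 8.51, 8.74 and 8.36 in wild-type samples. These groups overlapped almost fully, with a difference of 0.07 (SE 0.10, limma adjusted p = 1.00, exact permutation p = 0.457). Ccnb2, the other B-type cyclin gene, was at 0.04 and Ccna2, the A-type cyclin gene of S and G2 phase, at 0.05. Cks2, which encodes a small Cdk-binding subunit, was at 0.06, and Cdc25c, which encodes a phosphatase that activates Cdk1, at 0.15. The phosphatase gene Cdc25b stood apart in direction, with 6.95, 6.95, 7.20 and 7.12 in null samples, against 7.14, 7.02, 7.07 and 7.20 in wild-type samples. Its difference was −0.05 (SE 0.08, limma adjusted p = 1.00, exact permutation p = 0.429).

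All 8 genes of spindle assembly lay above 0, between 0.10 and 0.17, and 0 of 8 passed. They hold the mitotic kinase genes Aurka (0.13) and Plk1 (0.14), Tpx2 (0.13), whose product activates Aurora A on the spindle, and Kif11 (0.14), the kinesin gene whose motor pushes spindle poles apart. Kif2c (0.17) encodes a kinesin that shortens microtubules, Nusap1 (0.11) and Hmmr (0.10) encode microtubule-associated proteins, and Dlgap5 (0.16) encodes a protein that stabilises kinetochore fibres. For each of these 8 the difference was smaller than 1 SD of the wild-type samples.

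The centromere and kinetochore genes included the 2 largest differences among the 41, those of Cenpf and Cenpe. All 6 lay above 0 with a median of 0.12, and 0 of 6 passed. Cenpf, which encodes a large kinetochore protein made in G2, was 8.46, 8.12, 8.67 and 8.06 in null samples, against 8.08, 8.01, 8.28 and 7.64 in wild-type samples. Null 1 and null 3 stood above all wild-type samples, whereas null 2 and null 4 lay among them. The difference was 0.32 (SE 0.17, limma adjusted p = 1.00, exact permutation p = 0.171). Cenpa encodes the histone H3 variant that marks centromeres. It was 6.394, 6.391, 6.436 and 6.478 in null samples, against 6.387, 6.225, 6.386 and 6.277 in wild-type samples. It was the only one of the 41 genes in which the groups did not overlap, with 0.0036 between the lowest null and the highest wild-type value, and over all genes 0.871% were without overlap and higher in null samples. The difference of Cenpa was 0.11 (SE 0.06, limma adjusted p = 1.00), and its exact permutation p of 0.0286 is the smallest that 4 against 4 samples can give. Cenpe, a kinetochore motor gene, was at 0.26 (SE 0.17). The genes of the Ndc80 complex, which holds microtubules at the kinetochore, had smaller differences than Cenpe, with Ndc80 at 0.13, Nuf2 at 0.09 and Spc25 at 0.04.

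The spindle checkpoint genes lay above 0 in 5 of 5 cases, with a median of 0.08, and 0 of 5 passed. Bub1b, which encodes BubR1, was at 0.21 (SE 0.17) and the kinase gene Bub1 at 0.12 (SE 0.10). Mad2l1, which encodes the Mad2 inhibitor of Cdc20, was at 0.08, Bub3 at 0.05 and the checkpoint kinase gene Ttk at 0.04. The sign of Ttk changed when null 3 (−0.0032) or wild type 2 (−0.03) was left out, and that of Mad2l1 changed without wild type 4 (−0.01).

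The chromosomal passenger complex corrects faulty attachments at centromeres and later works in cytokinesis. Its 4 genes lay above 0, and 0 of 4 passed. Birc5, which encodes the subunit survivin, was 7.30, 7.28, 7.45 and 7.31 in null samples, against 7.23, 7.01, 7.32 and 7.21 in wild-type samples. Wild type 3 lay above 3 null samples, and the other wild-type samples lay below all of them. The difference was 0.14 (SE 0.08, limma adjusted p = 1.00, exact permutation p = 0.114). The scaffold gene Incenp was at 0.18, the borealin gene Cdca8 at 0.09 and the kinase gene Aurkb at 0.07.

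The 3 genes of anaphase onset and mitotic exit included 2 of the 3 members with a difference below 0. Ube2c, which encodes the ubiquitin-conjugating enzyme of the anaphase-promoting complex, was 8.66, 8.61, 8.70 and 8.65 in null samples, against 8.68, 8.60, 8.77 and 8.66 in wild-type samples. Its difference was −0.02 (SE 0.06, limma adjusted p = 1.00, exact permutation p = 0.600), with a 95% interval of −0.16 to 0.11. Pttg1, which encodes securin, the inhibitor of separase, was 6.54, 6.66, 6.62 and 6.62 in null samples, against 6.59, 6.61, 6.65 and 6.58 in wild-type samples. Its difference was −0.00018 (SE 0.06, limma adjusted p = 1.00, exact permutation p = 0.971), with a 95% interval of −0.13 to 0.13. Both genes varied little in either group. Cdc20, the activator of the anaphase-promoting complex, was at 0.13 (SE 0.10).

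The central spindle and cytokinesis genes had the highest median among the groups of 3 or more genes, at 0.17, with 6 of 6 above 0 and 0 of 6 passing. Anln, which encodes the contractile ring protein anillin, was 9.12, 9.13, 9.35 and 9.04 in null samples, against 9.02, 8.89, 9.24 and 8.71 in wild-type samples. Wild type 3 again lay inside the null range, above 3 null samples. The difference was 0.20 (SE 0.12, limma adjusted p = 1.00, exact permutation p = 0.200). Kif23, a motor subunit gene of the centralspindlin complex, was 8.491, 8.534, 8.768 and 8.501 in null samples, against 8.482, 8.209, 8.644 and 8.234 in wild-type samples. Its difference was 0.18 (SE 0.11, limma adjusted p = 1.00, exact permutation p = 0.200). The kinesin genes Kif4 and Kif20a were at 0.22 and 0.16. The gene of the microtubule bundler Prc1 was at 0.11, and Ect2, whose product activates RhoA at the cleavage site, at 0.15.

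For most of the genes, values spread more widely among the embryos of 1 genotype than the 2 group means lay apart. The range over the 4 wild-type samples was larger than the difference between groups for 40 of 41 genes, all but Mki67, and the range over the 4 null samples was larger for 40 of 41, all but Cenpa. These counts were not made over all genes and are not read as particular to the 41 genes. The median range was 0.31 over null samples and 0.42 over wild-type samples, against the median difference of 0.13. Null 3 was the highest of the 8 samples for 25 of 41 genes, which held for 12.7% of all genes. Wild type 4 was the lowest for 25 of 41, which held for 16.3% of all genes. Wild type 3 was the highest for 11 genes and wild type 2 the lowest for 11. The median deviation of the 41 genes from their own means was 0.02, 0.02, 0.24 and −0.04 in null samples 1 to 4, against −0.00064, −0.16, 0.16 and −0.23 in wild-type samples 1 to 4. The samples numbered 3 were thus high in both groups and those numbered 4 low in both, and wild type 3 lay above null 4 for 35 of 41 genes. Without wild type 4 the median difference was 0.05, with 33 of 41 genes above 0, and without null 3 it was 0.06, with 37 of 41 above 0. Without wild type 3 it was 0.19, with 40 of 41 above 0.

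**Figure D4:**
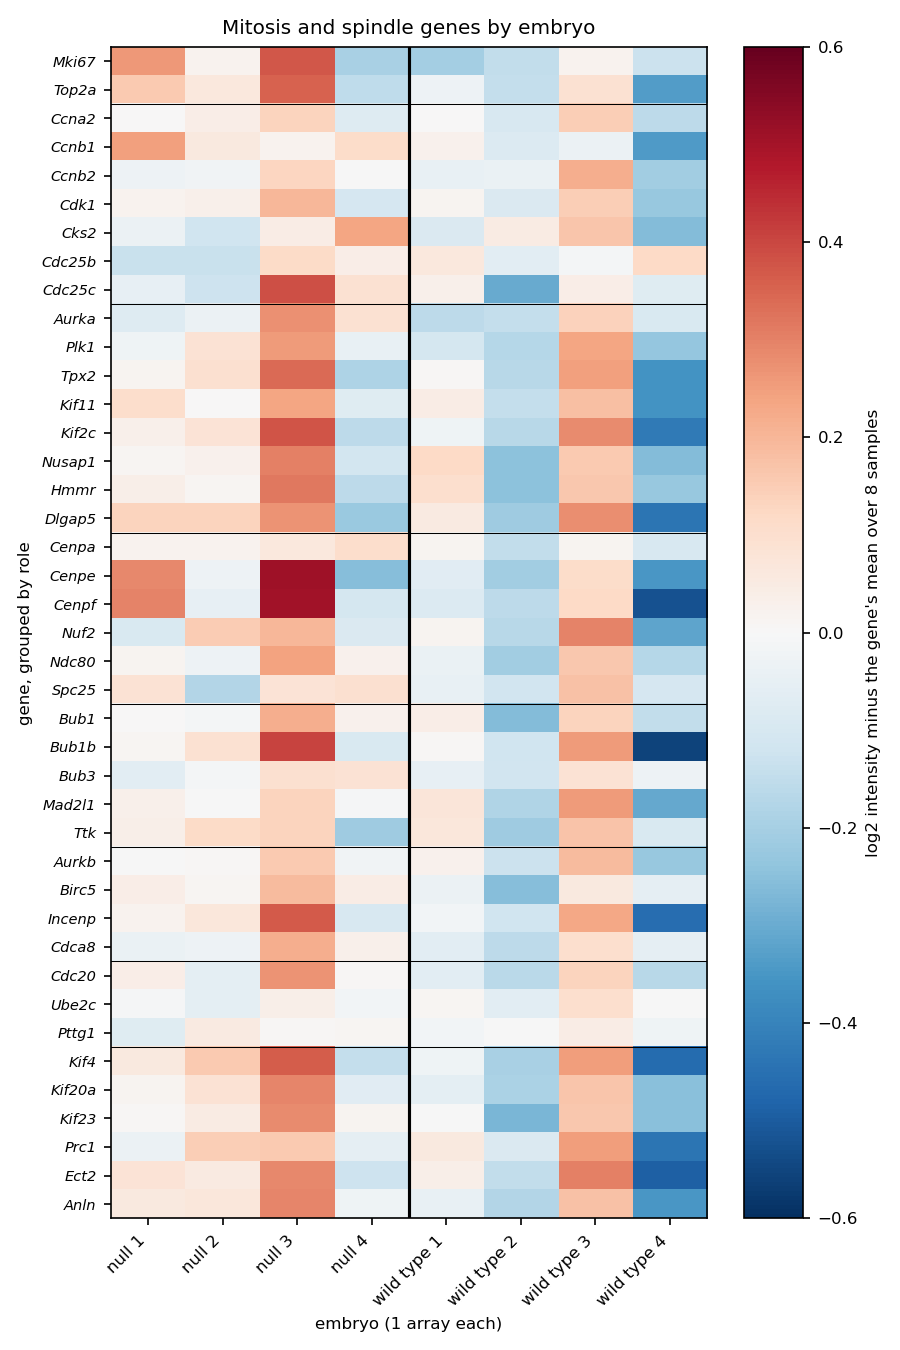
Log2 intensity of each of the 41 genes in each embryo, minus the gene's mean over the 8 samples (red above, blue below), with the 4 Foxi3 null embryos left of the line and the 4 wild-type embryos right of it. Null 3 and wild type 3 are red and wild type 4 and wild type 2 blue in most rows, while Pttg1, Ube2c, Cdc25b and Cenpa show little contrast.

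The genes followed this shared profile to unequal degrees. With group means removed, the correlation of each gene with the mean of the other 40 over the 8 samples had a median of 0.91 and was above 0.9 for 23 genes. It was 0.09 for Cdc25b, 0.33 for Pttg1, 0.36 for Ccnb1 and 0.40 for Cks2, the lowest of the 41. These values describe genes measured on the same 8 arrays, and no test was made of them. The spread between embryos was smaller in the null group for 31 of 41 genes, with a median SD of 0.14 in null and 0.18 in wild-type samples, and over all genes it was smaller in 48.4%. Without wild type 4 the count was 28 of 41, against 43.3% of all genes. Without both samples numbered 4 it was again 28 of 41, against 58.5% of all genes. Over all samples the spread was also smaller in the null group for 39 of 44 DNA replication genes. The same held for 50 of 65 mitosis genes outside the 41. This difference in spread was not tested.

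Genes of the same process outside the 41 had the same direction. They were measured on the same 8 arrays. As lists, the mitosis and DNA replication genes were also highest in the samples numbered 3 and lowest in wild type 4. Their counts thus repeat the shared embryo profile and are not independent support. Of 65 measured mitosis genes not among the members, 60 lay above 0 with a median of 0.11, and 0 passed in either direction. The 3 with the lowest unadjusted p were Cit, which encodes the cytokinesis kinase citron, at 0.23 (SE 0.10), and the centromere genes Cenpp at 0.19 (SE 0.10) and Cenpk at 0.22 (SE 0.13). Of 44 DNA replication genes, which act in S phase, 43 lay above 0 with a median of 0.12, and 0 passed. The polymerase genes Pold1 at 0.17 (SE 0.08) and Pole at 0.33 (SE 0.17) and the ribonucleotide reductase gene Rrm1 at 0.18 (SE 0.09) had the lowest unadjusted p. Of the list of G1 cyclin and Cdk inhibitor genes, which also held Rb1, 5 of 12 lay above 0, with a median of −0.01, and 0 passed. Cdkn1a, which encodes the inhibitor p21, was at −0.24 (SE 0.11), Cdkn2c at 0.11 (SE 0.06) and Rb1 at −0.11 (SE 0.09).

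Transcripts of the factors that act on mitotic promoters differed little between the groups. Of 16 measured genes of the DREAM, B-Myb, FoxM1 and NF-Y machinery and Trp53, 12 lay above 0 with a median of 0.03, and 0 passed. Foxm1 was at 0.02 and Mybl2, which encodes B-Myb, at 0.08. E2f4, the E2F gene of the DREAM complex, was 8.23, 8.22, 8.21 and 8.29 in null samples, against 8.32, 8.29, 8.33 and 8.43 in wild-type samples. All 4 null values lay below all wild-type values, as held for 1.07% of all genes, and the difference was −0.11 (SE 0.06, limma adjusted p = 1.00, exact permutation p = 0.0286). The DREAM partner gene E2f5 was at −0.15 (SE 0.12) and the NF-Y subunit gene Nfya at 0.09 (SE 0.09).

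Genes of the differentiation and dissociation stress lists also varied between these embryos. The suprabasal and cornified epidermis list had 22 of 24 genes below 0 and a median difference of −0.29, with 0 called by limma, and its summed log2 level was 194 to 216 in null samples and 202 to 223 in wild-type samples. Its median deviation was −0.15, −0.02, −0.45 and 0.15 in null samples 1 to 4, against 0.21, 0.20, −0.20 and 0.38 in wild-type samples 1 to 4. The embryos highest in mitotic transcripts, null 3 and wild type 3, were thus the lowest in these, and wild type 4 was lowest in the one and highest in the other. The basal epidermis list had 8 of 12 genes below 0 and a median difference of −0.03, with 0 called. Its summed level was 110 to 112 in null and 111 to 113 in wild-type samples. The median deviation of this basal list was highest in wild type 4 (0.08) and null 3 (0.06), and lowest in null 2 (−0.12). The immediate-early genes of the dissociation stress list had 19 of 20 below 0 and a median difference of −0.32, with 0 called. Their summed levels were 149 to 168 in null and 151 to 185 in wild-type samples. Their median deviation was 0.34 in null 4 and 1.39 in wild type 4, against −0.40 to −0.13 in the other samples. No gene of these lists had a value of 0. What induced the immediate-early genes was not tested, nor was the part of differentiation and of handling in the mitotic profile. The median difference of the 41 genes was 0.05 without wild type 4, with 33 above 0, and 0.10 without both samples numbered 4, with 35 above 0. The dermal fibroblast genes, with 12 of 12 above 0, a median difference of 0.39, 0 called and summed levels of 89.6 to 109 in null and 89.1 to 92.9 in wild-type samples, stood high in null 2 alone, and without that sample the median of the mitotic genes was 0.14. Skeletal muscle genes had 9 of 9 below 0 with a median difference of −0.13, and 0 were called. Their summed level was 42.5 to 43.8 in null and 43.3 to 46.2 in wild-type samples, highest in wild types 1 and 2. Their mean level, 4.73 to 4.87 in null and 4.81 to 5.14 in wild-type samples, lay below the median of all genes. Their part in the mitotic differences was not tested either. The embryos with high Ddx3y were the highest, the second and the lowest in mitotic transcripts, and with sex as a covariate the median was 0.17.

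**Figure D5:**
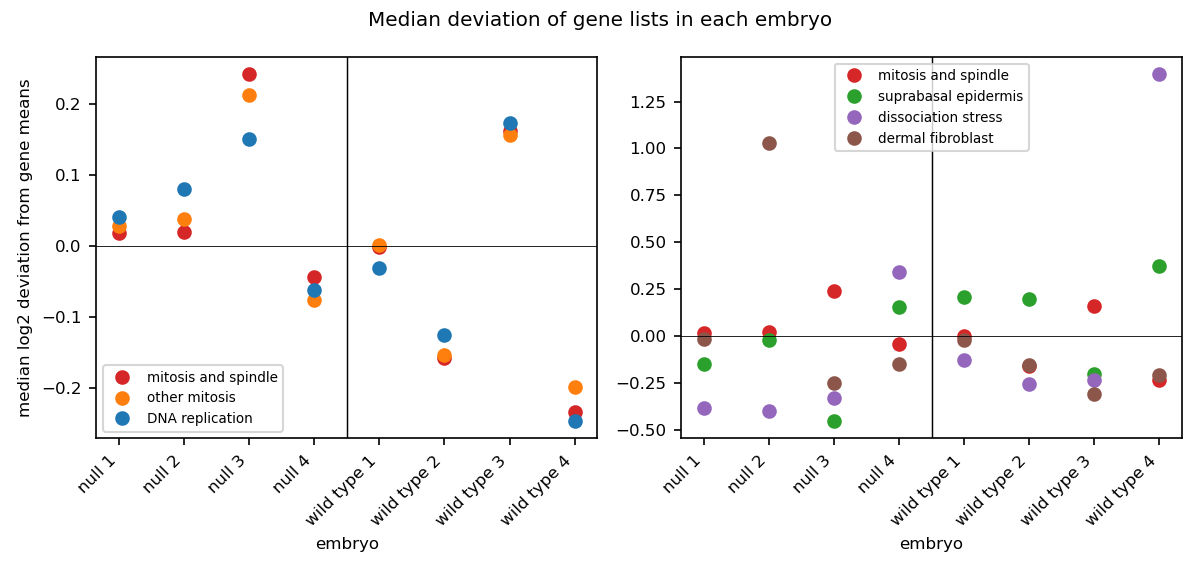
Median log2 deviation of gene lists from their gene means in each embryo, with Foxi3 null embryos left of the line and wild-type embryos right of it. Mitosis, other mitosis and DNA replication genes (left panel) are highest in the embryos numbered 3 and lowest in wild type 4, and the right panel sets the mitosis genes beside suprabasal, dissociation stress and dermal fibroblast genes.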

How the data were processed

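Gene expression was measured on arrays in 8 samples, 4 Foxi3 null and 4 wild-type embryos, grouped by the sample titles. The deposited values are log2 intensities that the authors made with RMA, per the submitters' processing notes. RMA subtracts an estimated background, gives the arrays a common distribution and combines the probes of a gene. Its version, the annotation, the build and any filter: not given in the sources used here. Symbols came from the deposited gene table, whose group means lay within 7.5e-09 of those computed from the samples. Another 8 columns there carry no sample's name and were left unused, so the alternative planned on the second table was not run. Precision is limited by the number of arrays.

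The comparison used limma 3.58.1 in R 4.3.3 (lmFit, then eBayes) over all 26165 genes, two-sided, with Benjamini-Hochberg adjustment and no covariate. Single genes also had an exact permutation test over 70 arrangements, whose smallest p is 0.0286. In simulated data on 26165 genes, 2.00%, 48.0% and 88.0% of changes of 0.25, 0.5 and 1 on the log2 scale were recovered. The noise was drawn independently for each gene, and 200 randomly chosen genes carried changes. No change as small as the median difference of the 41 genes was simulated. limma's moderated SD had a median of 0.16 for the 41 genes and 0.13 over all genes, so these shares need not hold for the 41. Members and lists were chosen with earlier results of these data known. Genes given by sample were the 8 of lowest unadjusted p, those without overlap, Mki67, Top2a, Ccnb1, Cdk1 and the 3 of lowest difference. From the other cell cycle lists up to 3 genes of lowest p were named. Replicate numbers were not taken as pairs. Alternatives were other normalisations, an intensity filter, 1 row per symbol, array weights, other moderation, a sex covariate, a replicate block, a looser threshold and leaving out samples, and leaving out both samples numbered 3 was chosen after seeing the data. Promoter windows were from RefSeq and were searched with Python 3.11.15.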

Additional observations from a re-analysis of the deposited data

Results flagged for a closer look

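These are samples far from the rest of their group by Dixon's ratio, the distance to the next sample over the whole range, given in parentheses. The ratio passed its 95% critical value for 7 of 110 values tested, and chance gives about 5% of them. Null 2 stood low for Spc25 (0.963). Null 3 stood high for Aurkb (0.855) and Kif23 (0.844), and for the mean level of the chromosomal passenger complex genes (0.898) and of the anaphase and exit genes (0.834). The dissociation stress mean stood high in null 4 (0.909) and in wild type 4 (0.885).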

How the results depend on the processing

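Of the 41 genes, 0 were called by limma under each of the 20 alternatives run, and the lowest adjusted p of a member was 0.285 (Cenpf, replicate block). The median difference lay between 0.05 and 0.19 and the count above 0 between 33 and 40 over all alternatives. The number of members at an unadjusted p under 0.05, 1 in the analysis reported, was 9 with the replicate block, 7 without wild type 3, 4 without null 4, 3 with array weights and 2 with the sex covariate. Over all 26165 genes the number, 973 in the analysis reported, rose at these settings too. In the same order it was 2339, 1898, 2194, 1786 and 1297. For the pairing, deviations of same-numbered samples correlated at 0.13, −0.04, 0.49 and 0.36 over all genes and at 0.13, −0.07, 0.51 and 0.55 over the 41 genes. The criterion was a correlation over 0.1 in every pair, which number 2 did not meet, and 5 of 8 samples were most like their own number over all genes (4 of 8 over the 41). Null minus wild type of the mean level was above 0 within each number, at 0.05, 0.17, 0.08 and 0.20. Since the numbers were not taken as pairs, these signs depend on the matching. The mean level of wild type 3 (8.56), for one, lay above that of null 4 (8.36). The count of members at an unadjusted p under 0.05 was 0 among genes above the median intensity, with trend and robust moderation, without variance moderation, and without null 1, null 2, wild type 2, wild type 4 or both samples numbered 3. Over all genes the count was 470 to 1259 at these settings. Over all genes the calls, 3 in the analysis reported, were 0 with the replicate block, without variance moderation and without both samples numbered 4, and 0 to 4 when 1 sample was left out. Genes at an unadjusted p under 0.05, 973 in the analysis reported, numbered 1688 without both samples numbered 4 and 470 among genes above the median intensity. Of 819 values of single members, 801 kept their sign. Pttg1 was 0.0040 after quantile normalisation, 0.018 after median centring, 0.0034 with the sex covariate, 0.012 without both samples numbered 3, and −0.018 to 0.024 with 1 sample left out. With 1 sample left out, Ube2c was −0.050 to 0.0058, Ttk −0.030 to 0.11, Ccnb2 −0.026 to 0.12, Cks2 −0.012 to 0.13, Nuf2 −0.0070 to 0.20, Mad2l1 −0.010 to 0.18 and Prc1 −0.021 to 0.21. Without both samples numbered 4, Ccnb2 was −0.019, Cks2 −0.081 and Spc25 −0.0071. The causes were not tested.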

Other observations

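Outside the lists, the 5 of 24673 named genes whose level over the 8 samples was most like the mean profile of the 41 genes were Src, D19Bwg1357e, Lrig1, Hn1l and A730017C20Rik, with Pearson correlations of 0.990 to 0.986. They were picked as the highest values, so the correlations are a description with no test, and 8 samples are few for such a ranking.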
